A study of Mus musculus with 8 samples.

Results

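Olfactory receptor (OR) genes were taken as the autosomal protein-coding genes of the RefSeq annotation of mouse build mm10 whose symbol is Olfr and a number. There were 1104 of them among 20661 autosomal protein-coding genes. Each gene was extended by 2 kb on either side, and overlapping stretches were merged into 1081 regions of 6484603 bp in total. Regions up to 1 Mb apart were joined into 48 genomic clusters. The annotation held no gene under the newer Or names, and no measured value entered the choice of the genes.

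GpC methylation had been read by NOMe-seq in 8 libraries of mouse embryonic fibroblasts (MEFs), 2 in each of 4 groups. The groups were day 1 of Etv2-induced reprogramming with the GpC methyltransferase M.CviPI (day 1 treated), day 0 control MEFs with the enzyme (day 0 treated), day 1 without it (day 1 untreated) and day 0 without it (day 0 untreated). Etv2 is an ETS transcription factor of endothelial and blood development. The labels give no strain, genotype or construct and do not say how Etv2 was induced, and no RNA data were analysed here, so that neither the identity of the cells nor the expression of OR genes was checked. Nothing in them tells separate cultures from repeat libraries of the same cells, so p-values measure the spread between these libraries, which may be technical.

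M.CviPI adds methyl groups to GpC cytosines of DNA that is neither wrapped in a nucleosome nor bound by another protein, and bisulfite sequencing then reads the mark, so that a high level in treated libraries stands for accessible DNA. OR genes form the largest gene family of the mouse genome and encode G protein-coupled receptors with which olfactory sensory neurons detect odorants. Each of these neurons expresses a single receptor gene, from a single allele, while the other OR clusters lie in heterochromatin. The coding sequence of an OR gene usually sits in a single exon behind an AT-rich start region, and enhancers inside the clusters are bound by Lhx2, Ebf factors and Ldb1. Outside the nose most of the family is silent.

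The genes lay on 16 chromosomes, with 287 on chromosome 2 and 239 on chromosome 7. Their median annotated length was 950 bp, and 78.6% of the lengths were multiples of 3, the pattern of models that hold coding sequence alone. Only 10 genes were annotated as longer than 20 kb. In 10 genes the extended region overlapped another protein-coding gene.

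The sequence at the annotated start sets how much NOMe-seq can read there, since the enzyme can only act at GpC. RefSeq start windows of 300 bp (250 bases before and 50 after the start, assembly GRCm38.p6, which is mm10) were at hand for 938 of the 1104 genes, in 942 windows. Their median G and C content was 35.0%, against 57.7% in 19112 windows of other protein-coding genes. A median OR window held 16 GpC cytosines that are not followed by G, counting both strands, and a median window of the other genes held 38. CpG was scarce as well, with a median of 1 per OR window and 15 per window of the other genes, and 33.5% of OR windows had none against 2.97%. Windows of vomeronasal receptor genes, the chemoreceptor families of the vomeronasal organ, resembled those of OR genes, with a median G and C content of 36.7% and 16 such cytosines.

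**Figure D1:**
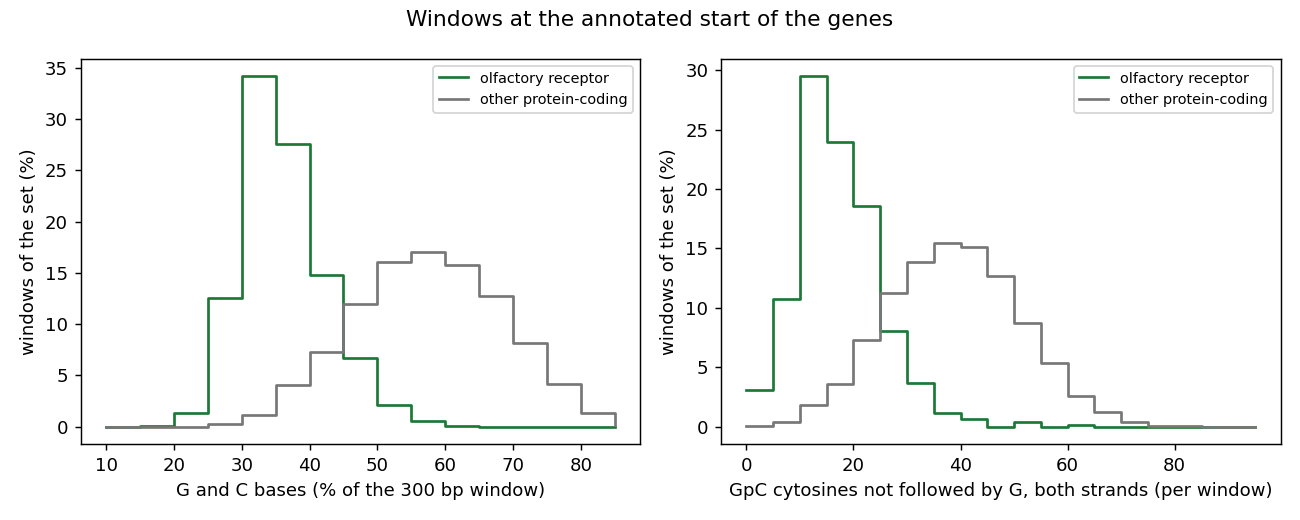
Share of start windows (y axis, percent of each set) by G and C content (left, percent of the 300 bp window) and by the number of GpC cytosines not followed by G on both strands (right), for 942 OR windows in green and 19112 windows of other protein-coding genes in grey. The OR windows centre on 35.0% G and C and 16 such cytosines, and the other windows on 57.7% and 38.

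Reads reached few of these windows: 34 of the 942 had any read in a treated library, and 2 had treated reads on both days. The 4 windows below show what lies behind those reads, with every GpC that holds a cytosine not followed by G in capitals, 5′ to 3′ on the strand of the gene.
Olfr374, chr8:72106790-72107089, plus strand: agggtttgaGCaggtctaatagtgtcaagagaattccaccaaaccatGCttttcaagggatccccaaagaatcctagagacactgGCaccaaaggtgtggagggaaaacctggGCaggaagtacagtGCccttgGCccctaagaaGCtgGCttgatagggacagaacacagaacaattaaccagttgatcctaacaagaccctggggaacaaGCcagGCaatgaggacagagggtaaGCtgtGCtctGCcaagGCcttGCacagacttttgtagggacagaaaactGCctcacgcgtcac
Olfr9, chr10:128989664-128989963, plus strand: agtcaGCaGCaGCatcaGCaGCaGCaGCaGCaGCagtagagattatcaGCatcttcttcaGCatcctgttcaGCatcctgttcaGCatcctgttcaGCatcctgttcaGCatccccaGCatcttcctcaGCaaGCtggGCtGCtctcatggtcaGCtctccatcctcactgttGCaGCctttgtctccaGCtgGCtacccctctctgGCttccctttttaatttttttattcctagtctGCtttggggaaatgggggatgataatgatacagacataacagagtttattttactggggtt
Olfr212, chr6:116506266-116506565, plus strand: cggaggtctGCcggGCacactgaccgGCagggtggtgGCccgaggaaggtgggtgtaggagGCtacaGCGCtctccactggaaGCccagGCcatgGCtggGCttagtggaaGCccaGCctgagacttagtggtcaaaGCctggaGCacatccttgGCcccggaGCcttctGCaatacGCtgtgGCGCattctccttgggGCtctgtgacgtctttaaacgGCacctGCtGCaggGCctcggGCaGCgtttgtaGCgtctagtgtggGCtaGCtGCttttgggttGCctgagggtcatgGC
Olfr1504, chr19:13888159-13888458, minus strand: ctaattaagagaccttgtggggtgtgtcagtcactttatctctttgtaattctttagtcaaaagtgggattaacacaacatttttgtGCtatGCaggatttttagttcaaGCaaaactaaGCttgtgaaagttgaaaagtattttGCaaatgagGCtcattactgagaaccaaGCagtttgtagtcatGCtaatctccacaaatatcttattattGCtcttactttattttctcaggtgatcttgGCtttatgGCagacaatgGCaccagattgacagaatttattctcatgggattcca

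Olfr374 had the most treated reads of any OR window. In its window 20 of 40 reads were methylated in replicate 1 and 15 of 15 in replicate 2 of day 1 treated, against 1 of 3 in replicate 1 of day 0 treated and no reads in replicate 2. Its G and C content of 50.7% and its 32 readable cytosines lie far above the family's medians. Olfr9 carries a run of short repeats rich in GpC, with 54 readable cytosines in all, and 19 of 24 reads were methylated there in replicate 2 of day 0 treated, with no reads in the other libraries. Olfr212 has the highest G and C content of the 4, at 62.3%. There 1 of 12 reads was methylated in replicate 2 of day 1 treated and 1 of 3 in replicate 1 of day 0 treated. Olfr1504, at 35.7%, is close to the family's median and had 1 methylated read of 12 in replicate 2 of day 1 treated. High and low levels thus both occurred among the few windows read, and none had enough reads for a comparison of days.

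Motifs were counted as plain letters on both strands of the windows, and matches of different motifs may overlap. TAATTA, the core bound by many homeodomain proteins such as Lhx2, was found in 18.7% of OR windows, in 3.78% of windows of other protein-coding genes and in 5.27% of all 31365 autosomal windows. TATAAA, the letters of a TATA box, was found in 41.1% of OR windows, in 11.3% of the other genes' windows and in 13.6% of all. Vomeronasal windows held TAATTA in 10.9% and TATAAA in 35.5%. The palindrome CCCNNGGG of Ebf factors was rarer, at 3.08% in OR windows against 16.6% in other genes and 13.9% in all. CGGAAG, which holds the core of ETS sites, was found in 1.17% of OR windows, 22.5% of the other windows and 17% of all. These are matches of letters in windows of different base composition, and binding was not measured. Many OR windows may also lie at a start codon and not at a transcription start, since 78.6% of the gene lengths are multiples of 3.

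Coverage of the whole family was thin. The day 1 treated libraries held 804 and 913 sites with 2473 and 2795 reads in OR regions, and the day 0 treated libraries held 611 and 668 sites with 1929 and 2079 reads. Untreated libraries held 1197 and 1175 sites on day 1, and 537 and 413 on day 0. In each library 85.2% to 94.5% of OR sites had exactly 3 reads, the fewest in the files, and no site had more than 6. Of the 2963 sites read in a treated library, 0 were read in all 4 and 8 had treated reads on both days. Treated reads reached 495 of the 1081 regions, and 15 regions were reached in all 4 treated libraries. Comparisons between the days are therefore mostly comparisons of different sites. OR regions held 0.0949% to 0.121% of the autosomal sites of a library, and this share averaged 0.114% ± 0.00800 on day 1 and 0.108% ± 0.0105 on day 0 (SD, n = 4 each), with overlapping libraries (difference 0.00559 percentage points, exact two-sided permutation p = 0.457). Its sign depended on the flank: it was -0.00591 with the genes alone and 0.0287 with 5 kb on either side, where exact permutation p was 0.0286, the smallest possible.

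With the enzyme, OR DNA was methylated far above its background. The pooled level, methylated reads over all reads of the OR regions, was 28.8% and 30.0% in the day 1 treated libraries, against 1.08% and 0.816% in day 1 untreated. On day 0 it was 23.7% and 26.8% in the treated libraries, against 1.68% and 2.14% in the untreated ones. Every treated library lay above every untreated one. The difference was 28.4 points on day 1 and 23.4 points on day 0, both many times the spread between replicates (exact two-sided permutation p = 0.33 each, the smallest possible with 2 against 2 libraries). The treated level answers how much OR DNA the enzyme could reach, and the untreated level is its background. Wilson intervals of 95% for single libraries ran from 27.0% to 30.6% and 28.3% to 31.7% on day 1, and from 21.9% to 25.7% and 24.9% to 28.7% on day 0, and cover counting error only.

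Cluster by cluster the enzyme gave the same direction. A fit over all units used the OR clusters together with the other protein-coding genes, pooled in windows of 1 Mb. EdgeR's quasi-likelihood test called treated above untreated on day 1 in 19 of 19 OR clusters with at least 20 reads in each library, where 2017 of all 2018 units were called (100% after rounding), and on day 0 in 13 of 14, where 99.6% of 1918 were called. The cluster not called was that of Olfr1275 to Olfr1318 on chromosome 2, at 16.4% and 25% in day 0 treated against 4.48% and 9.30% in day 0 untreated (edgeR log2 odds change 1.75 ± 1.00 SE, adjusted p = 0.0836).

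Between the days, the treated OR level was 29.4% ± 0.842 on day 1 and 25.3% ± 2.16 on day 0 (SD, n = 2 each). Both day 1 libraries lay above both day 0 libraries, by 4.12 points on average, which exceeds the spread between replicates (exact permutation p = 0.33, the smallest possible). The untreated level went the other way, with 0.950% ± 0.190 on day 1 and 1.91% ± 0.321 on day 0 (SD, n = 2 each), a difference of -0.959 points without overlap (exact permutation p = 0.33, the smallest possible). In all, 18 comparisons of pooled levels were made, and the lowest Benjamini-Hochberg adjusted p among them was 0.25. The net difference, treated minus untreated, was 5.08 points (exact permutation of days within treated and untreated libraries, p = 0.0556, the smallest possible), and 2.63 points with 1 kb flanks (exact permutation p = 0.33). Means of the rest of the autosomes, vomeronasal receptor genes and other protein-coding genes with flanks were also higher on day 1 with the enzyme. So were those of DNA over 10 kb from any gene and of DNA between the OR regions. Without the enzyme all these sets were lower on day 1. Other protein-coding genes within 500 bp of the start were lower on day 1 with the enzyme, at 42.2% against 45.3%. Without it they stood at 1.46% and 1.53% on day 1 and at 1.51% and 1.49% on day 0. Untreated means were 1.26% on day 1 and 3.47% on day 0 in vomeronasal receptor genes. They were 1.10% and 2.34% in the rest of the autosomes.

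The size of the treated difference depended on which DNA was compared. OR sites with treated reads lay in 542 blocks of 1 kb on day 1 and in 383 on day 0, and 87 blocks held them on both days. The difference was also taken at OR sites in blocks with treated reads on both days, where reads beside an OR region counted too. There it was 1.70 points, and the libraries of the days overlapped (exact permutation p = 0.67). With 1 kb flanks it was 1.84 points (exact permutation p = 0.67). Without replicate 1 of day 0 treated, the lowest of the 4 libraries, it was 2.59 points, and sites of 5 or more reads gave 11.98 points with overlapping libraries (exact permutation p = 0.67). Depth moved with the day: both day 1 treated libraries had more OR reads than both day 0 treated libraries, and a larger share of sites with exactly 3 reads, at 94.0% and 94.5% against 88.2% and 89.4%. The part of depth in the difference was not tested.

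Set against the rest of the autosomes in the same library, OR regions were lower with the enzyme in 4 of 4 treated libraries. The rest stood at 30.4% in both day 1 treated libraries and at 29.2% and 29.1% in day 0 treated, and OR regions differed from it by -1.61 and -0.392 points on day 1 and by -5.42 and -2.30 points on day 0. The mean within-library difference was -2.43 points (exact sign-flip permutation p = 0.125, the smallest possible with 4 libraries), and -1.43 without replicate 1 of day 0 treated. It was -4.01 with sites of any number of reads and -3.74 with the genes alone. With each 1 kb block counted once it was -0.942, and there, at sites of at most 10 reads (-1.94) and with the mean of site fractions (-1.94), the sign was not the same in all 4 libraries (exact permutation p = 0.25 each). Against other protein-coding genes with their 2 kb flanks the mean was -2.56 points, again negative in 4 of 4 libraries (exact permutation p = 0.125), and -1.53 without replicate 1 of day 0 treated.

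Other clustered or gene-poor DNA was compared in the same way, at sites of at most 100 reads like all levels here. Vomeronasal receptor genes, 352 in number and also arranged in clusters, had 29.8% and 29.1% in day 1 treated and 27.3% and 24.7% in day 0 treated. OR genes were lower than these in replicate 1 of both days and higher in replicate 2 of both days, with a mean difference of -0.395 points (exact permutation p = 0.75). DNA over 10 kb from any gene had 29.0% and 29.3% on day 1 and 27.3% and 27.5% on day 0, and OR regions differed from it by -0.941 points (exact permutation p = 0.375), by -0.0703 without replicate 1 of day 0 treated, by -1.50 without replicate 2 of day 1 treated, and by -7.04 with sites of any number of reads (exact permutation p = 0.125). DNA inside the clusters but between the OR regions had 29.6% and 30.7% on day 1 and 28.2% and 27.5% on day 0. OR regions were below it in 4 of 4 libraries, by -1.66 points on average (exact permutation p = 0.125), -0.749 without replicate 1 of day 0 treated and -12.1 at sites of 5 or more reads. Without the enzyme OR regions differed from the rest of the autosomes by -0.287 points (exact permutation p = 0.125). The size of that difference varied with the setting, at -2.47 with sites of any number of reads, -1.90 at sites of 5 or more reads, -0.117 with 5 kb flanks and -0.174 without replicate 1 of day 0 untreated.

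The day difference of OR regions was larger than that of the rest of the autosomes by 2.85 points (exact permutation p = 0.33, the smallest possible), but by 0.125 points over the 1 kb blocks read on both days (exact permutation p = 1). It was 1.29 and 4.41 points without replicate 1 or replicate 2 of day 0 treated, and 0.575 with 1 kb flanks. The 315 OR pseudogenes, which the rule leaves out, had 28.1% and 29.8% in day 1 treated and 19.8% and 27.9% in day 0 treated. On the X chromosome 6 OR genes were annotated, with 3 and 9 treated reads, all on day 0.

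**Figure D2:**
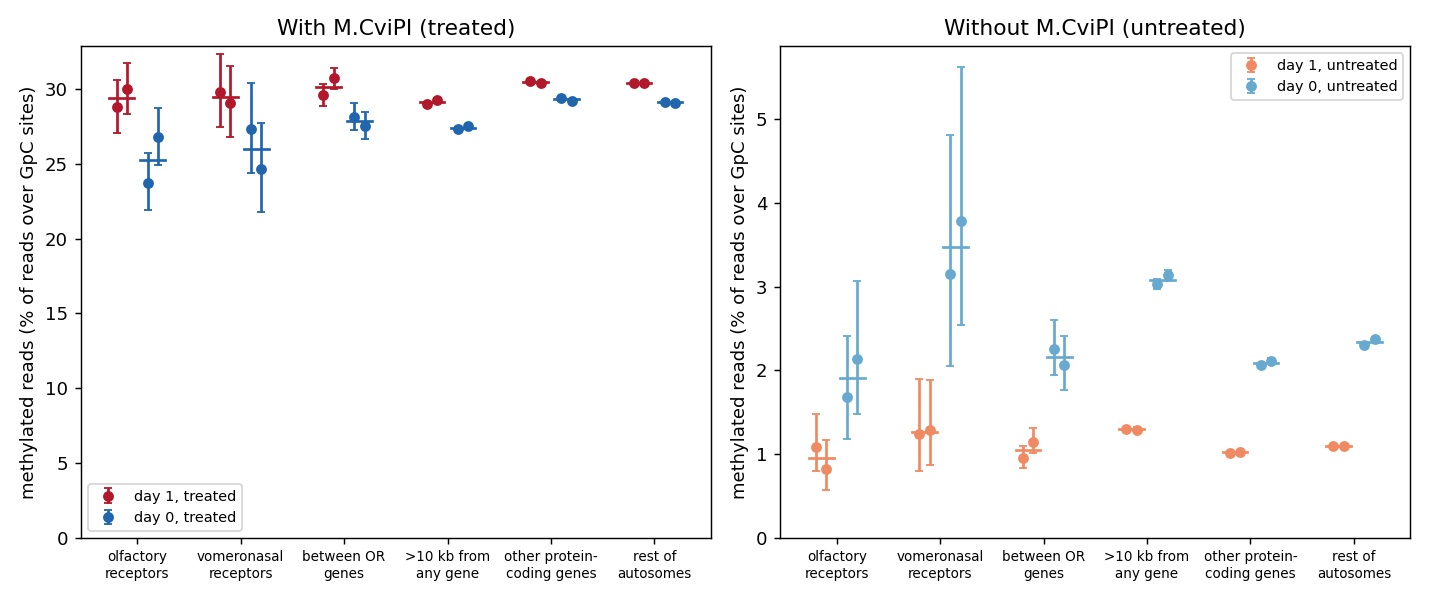
Pooled GpC methylation (y axis, percent of reads) of OR regions and 5 comparison sets, with the enzyme (left) and without it (right, on its own scale). Points are libraries with 95% Wilson intervals, horizontal bars are group means, and day 1 stands left of day 0. With the enzyme the OR libraries of day 1 lie at 28.8% and 30.0% and those of day 0 at 23.7% and 26.8%, below the rest of the autosomes in each library.

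Within the regions, the genes themselves were read more densely than their flanks and had lower levels. Gene bodies held 0.569 and 0.690 reads per kb in day 1 treated and 0.556 and 0.575 in day 0 treated, against 0.290 and 0.306 and 0.172 and 0.197 in the flanks. Treated levels in the genes were 26.5% and 28.5% on day 1 and 23.4% and 25.7% on day 0. In the flanks they were 30.9% and 31.6% on day 1 and 24.3% and 28.3% on day 0. The genes were lower in 4 of 4 libraries, by -2.79 points on average (exact permutation p = 0.125, the smallest possible). At the few sites with 5 or more reads the sign was the opposite (10.95 points).

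At annotated starts, where many genes have open promoters, OR genes lay below other genes. In models that hold coding sequence alone, as the lengths of 78.6% of OR genes allow, the annotated start is a start codon. The comparison may therefore set start codons of OR genes against transcription starts of other genes. Promoters of OR genes were not located here. Within 500 bp of the start, OR genes had 25.8% and 28.9% in day 1 treated and 25.6% and 30.0% in day 0 treated. Other protein-coding genes had 42.3% and 42.0% there on day 1 and 45.6% and 45.0% on day 0. OR genes were lower in 4 of 4 libraries, by -16.2 points on average (exact permutation p = 0.125, the smallest possible), which is several times the spread between replicates.

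From 1000 to 2000 bp away the sets lay close together on day 1, with 33.0% and 29.7% for OR genes against 31.2% and 30.6% for the others, and further apart on day 0, with 22.5% and 22.7% against 30.8% and 30.6%. The level near the start exceeded that far from it by 12.9 points in other genes. In OR genes the same difference was 0.576 points on average, negative in both libraries of day 1 and positive in both of day 0 (exact permutation p = 0.875), and it turned to -1.67 without replicate 2 of day 0 treated. The excess of OR genes was smaller than that of other genes in 4 of 4 libraries, by -12.4 points on average (exact permutation p = 0.125). OR windows of 300 bp were also read more rarely: 0.221% and 0.196% of their 15802 readable cytosines were covered in day 1 treated and 0.0886% and 0.101% in day 0 treated. In other protein-coding genes it was 0.788% and 0.733% on day 1 and 0.861% and 0.724% on day 0. Vomeronasal windows were covered still more rarely, at 0.135% and 0.0770% on day 1 and 0% and 0.0578% on day 0. Rare coverage was thus not particular to OR windows. Levels within 500 bp of vomeronasal starts were not compared.

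**Figure D3:**
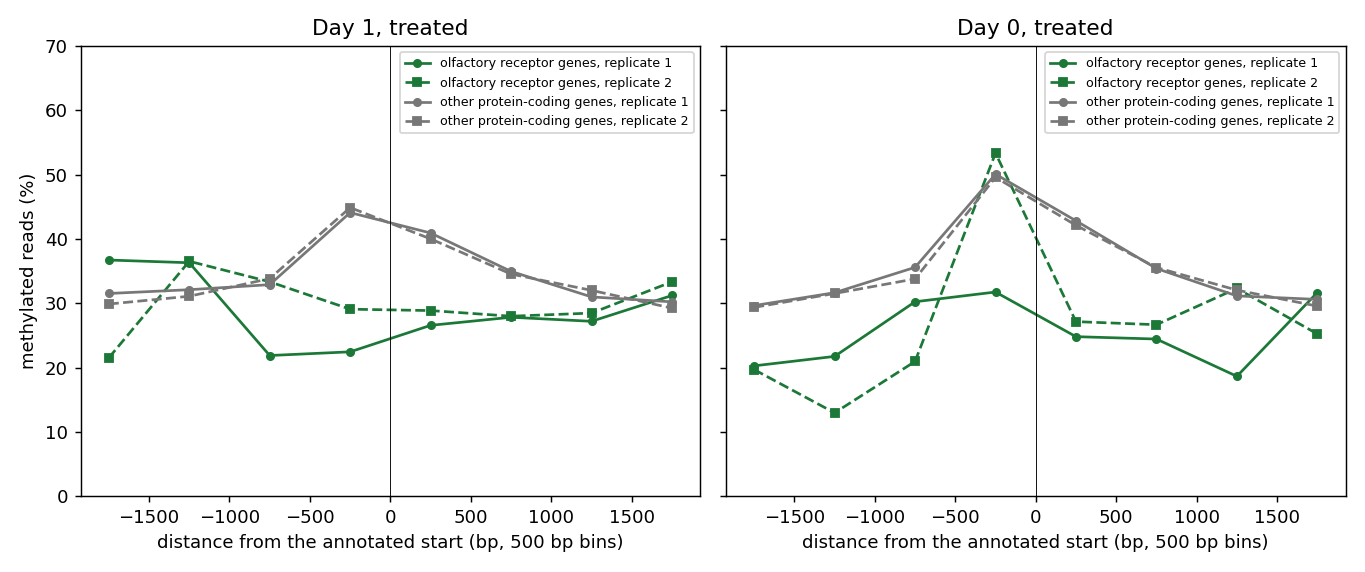
GpC methylation (y axis, percent of reads) in 500 bp bins by distance from the annotated start (x axis, bp, negative is upstream), in the day 1 treated libraries (left) and the day 0 treated libraries (right). OR genes are green, other protein-coding genes grey, and the line style marks the replicate. Many annotated starts of OR genes may be start codons and not transcription starts. Within 500 bp of the start the other genes average 42.2% on day 1 and 45.3% on day 0, and OR genes 27.3% and 27.8%.

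The clusters varied widely among themselves. In 19 clusters, which hold 915 of the 1104 genes, each treated library had at least 20 reads. Their pooled treated levels ran from 21.6% to 42.5% on day 1 (median 28.9%) and from 11.7% to 37.1% on day 0 (median 25%). Both day 1 libraries lay above both day 0 libraries in 9 clusters, where 27.0% of all 1960 units did so, and below them in 2, where 10.8% did so; in 8 they overlapped. Pooled over replicates, 15 of the 19 were higher on day 1 (63.7% of the other units), and the median difference was 4.01 points, against 1.20 in the other units. Replicates of the same cluster differed by a median of 6.91 points on day 1 and 8.61 on day 0, each between single libraries. The days differed by a median of 6.83 points in size, but between pools of 2 libraries. A pool varies less than a single library, so these sizes are not like measures.

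EdgeR called 0 of the 1960 units and 0 of the 19 OR clusters between the days with the enzyme (percent called 0), with 85 units and 2 OR clusters at an unadjusted p under 0.05. Limma also called 0, with 5 units and 0 OR clusters at an unadjusted p under 0.05. No call was made in either tool, and the median edgeR log2 odds change was 0.31 over the OR clusters and 0.08 over all units. Without replicate 2 of day 1 treated these medians were 0.11 and 0.09. For this comparison, data were simulated with the read counts of all 1960 units. EdgeR found 91% of log2 odds changes of 2 there but 20% of those of 1, so that the smaller size was mostly not detectable. Limma found fewer, 55% of changes of 2 and 4% of those of 1. The changed units were drawn from all units, of which 1941 were windows of other genes and 19 were OR clusters. None of these rates therefore applies to OR clusters as such, for which detection was not measured separately.

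The cluster of Olfr288 to Olfr279 on chromosome 15 (98184011 to 98500406) had 164 to 231 reads per treated library over its 9 genes. Its level was 27.4% and 32.5% in day 1 treated, against 18.7% and 21.4% in day 0 treated, without overlap (edgeR log2 odds change 0.79 ± 0.39 SE, adjusted p = 0.997). The cluster of Olfr722 to Olfr1507 on chromosome 14 (49892258 to 52497695, 36 genes) had the largest positive difference of the 19, 16.3 points pooled. Its libraries stood at 38.6% and 32.4% on day 1 and 24.2% and 11.7% on day 0 (edgeR log2 odds change 1.22 ± 0.51 SE, adjusted p = 0.997). At the other end, the cluster of Olfr90 to Olfr136 on chromosome 17 (37083191 to 38338097, 46 genes) had 31.3% and 19.7% on day 1 and 39.8% and 30.0% on day 0, with overlapping libraries and the largest negative difference, -9.10 points pooled (edgeR log2 odds change -0.64 ± 0.42 SE, adjusted p = 0.997).

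The largest cluster, Olfr987 to Olfr1274 on chromosome 2 (85328967 to 90403674, 222 genes), had 28.8% and 29.0% on day 1 and 26.8% and 17.6% on day 0. Both day 1 libraries were higher, and the replicates of day 0 differed by more than the means of the days. Olfr20 to Olfr412 on chromosome 11 (73348859 to 74367609) was 1 of the 2 clusters lower on day 1, with 29.9% and 17.7% against 33.3% and 31.6%. The other was Olfr1416 to Olfr12 on chromosome 1, with 29.2% and 29.3% against 40.7% and 30.7%.

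**Figure D4:**
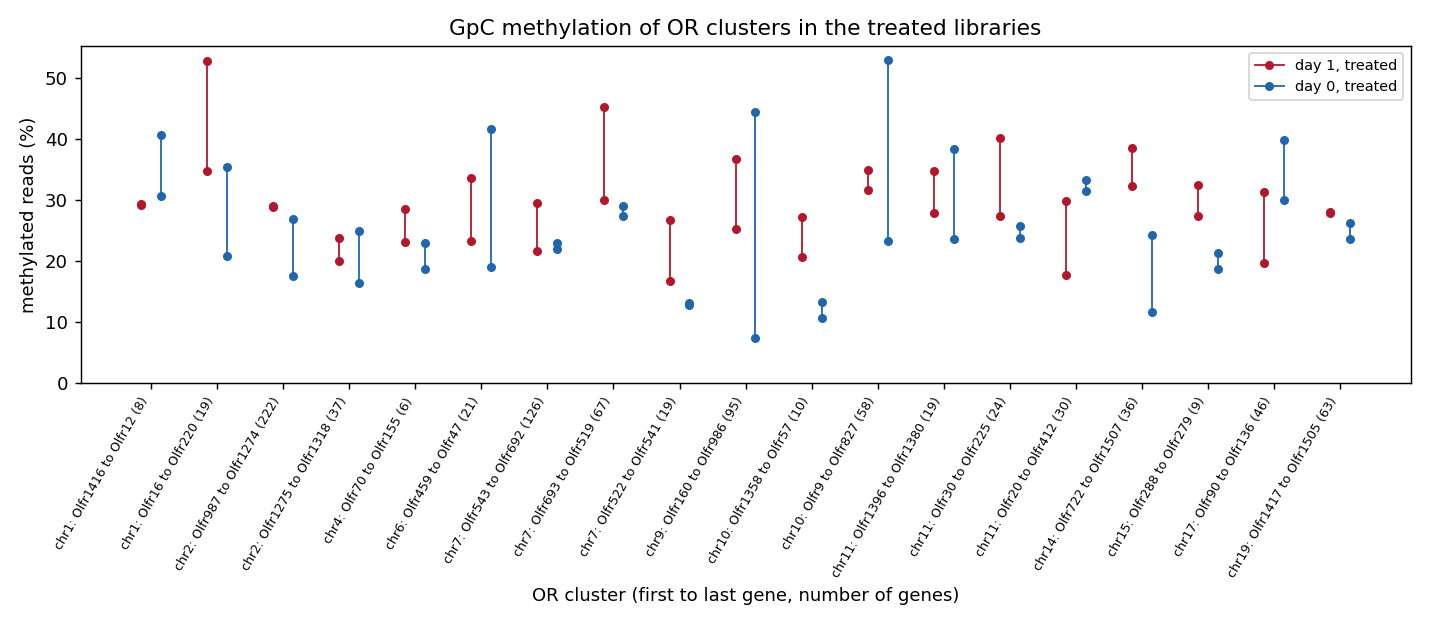
Pooled GpC methylation (y axis, percent of reads) of the 19 OR clusters with at least 20 reads in each treated library, named by first and last gene with the number of genes. Each line joins the 2 replicates of a group, day 1 treated in red on the left and day 0 treated in blue on the right of each cluster. The lines of the days do not overlap in 11 clusters, 9 with day 1 higher and 2 with day 1 lower, and many replicates lie as far apart as the days.

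Without the enzyme edgeR called 540 of 1942 units between the days (27.8%), all lower on day 1, but 0 of 14 OR clusters, with 2 at an unadjusted p under 0.05. Limma called 973 units (50.1%), among them 5 of the 14 OR clusters, all 5 lower on day 1. The median edgeR change over the OR clusters was -1.16 on the log2 odds scale, and that over all units -1.13. Without replicate 2 of day 0 untreated these medians were -0.15 and -1.09, and with clusters joined only up to 500 kb apart they were -0.57 and -1.13. For the net difference edgeR called 450 of 1904 units (23.6%), all higher, and 0 of 14 OR clusters, with 3 at an unadjusted p under 0.05, while limma called 2 of the 14 OR clusters, both higher, where it called 20% of all units. The OR median there was 0.66 and that of all units 1.22 in edgeR, but limma gave 1.28 and 1.22, and without replicate 1 of day 1 untreated edgeR gave 2.0 and 1.31. With each library centred on its median unit, which brings the median of all units close to 0, that of the OR clusters was -0.01 without the enzyme and -0.56 for the net difference, so that the sign of the OR median in the net difference depended on the scaling. After centring edgeR called 7 units without the enzyme, 6 higher and 1 lower on day 1, and 1 unit for the net difference, which was lower.

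The receptors fall into class I, which resembles the receptors of fish, and class II, which is typical of land vertebrates. Class was read from the MOR family numbers among the annotation's synonyms: 123 genes were class I, of which 121 lay in the cluster of Olfr543 to Olfr692 on chromosome 7 (102474773 to 105371317), 956 were class II and 25 had no such number. Class I genes had 23.4% and 29.6% in day 1 treated and 20.8% and 22.5% in day 0 treated. Class II genes had 29.2% and 30.1% on day 1 and 24.2% and 27.1% on day 0. Class I was lower in 4 of 4 treated libraries, by -3.56 points on average (exact permutation p = 0.125, the smallest possible), on 111 to 311 reads per library. The day difference was 4.87 points in class I and 3.99 in class II (exact permutation p of the difference = 1). Of the 5 MOR families with at least 20 genes, MOR171, MOR202 and MOR204 stood higher on day 1 when pooled, by 16.7, 21.6 and 4.87 points, and MOR245 and MOR256 differed by -10.0 and -6.06 points (none tested). The first 4 of these had 6 to 49 pooled reads on day 0. MOR256 with 49 genes was read deepest, at 25.3% and 27.2% on day 1, against 36.4% and 28.0% on day 0.

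Few single genes were read in every treated library. Treated reads reached 503 of the 1104 genes, 14 had them in all 4 treated libraries and 387 had no read in any of the 8. Just 6 genes had 10 or more reads in each treated library: Olfr288, Olfr1358, Olfr9, Olfr284, Olfr287 and Olfr1393. Their mean treated level was higher on day 1 in 4 and lower in 2, and each of them encodes a receptor of the family.

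Olfr288, on chromosome 15, had 20.8% (5 of 24 reads) and 40.5% (17 of 42) in day 1 treated, against 15.7% (11 of 70) and 7.41% (2 of 27) in day 0 treated. Its neighbour Olfr287, of the same MOR286 family, had 25.4% and 37.5% on day 1, against 6.67% and 15.9% on day 0. Olfr1358, on chromosome 10, had 23.3% and 42.9% on day 1, against 9.52% and 20.8% on day 0. In these 3 of the 6 genes, grouped here after their values were seen, both day 1 libraries lay above both day 0 libraries, and in 0 of the 6 both lay below. Over all 9063 genes with 10 or more reads in each treated library, 21.4% lay above without overlap and 13.3% below. The annotated models of Olfr288, Olfr287 and Olfr1358 are long for the family, at 9532, 18746 and 23101 bp, and the regions of Olfr288 and Olfr1358 also hold lncRNA genes.

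Olfr9, whose start window is printed above, had 16.7% and 23.8% on day 1 and 11.1% and 79.2% on day 0, so that a single library of day 0 stood far above the other 3. Olfr284 had 60% and 33.3% on day 1 and 53.3% and 11.1% on day 0, and Olfr1393 had 41.7% and 38.5% on day 1 and 50% and 30.3% on day 0, with overlap in both. Reads of Olfr1393 cannot be assigned to it alone, since its region overlaps Mgat1 and Olfr1392. Olfr288 and Olfr1358 could be fitted singly between the treated days, with edgeR log2 odds changes of 1.67 ± 0.97 and 1.60 ± 1.03 (SE). Neither passed in edgeR (adjusted p = 1.00 each), where 0 of 6868 single genes were called (percent called 0). In treated against untreated on day 1, Olfr287, Olfr1357 and Olfr1358 passed, 3 of 3 tested (99.8% of 8742 genes called).

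The remaining genes of the 10 read most evenly had fewer than 10 reads in some treated library. Olfr1414 had 11.1% and 22.2% on day 1 and 27.8% and 26.3% on day 0, so that both day 1 libraries lay below both day 0 libraries. Olfr279 had 11.1% and 50% on day 1 and 26.8% and 36.2% on day 0, and Olfr455 had 33.3% and 22.2% on day 1 and 17.9% and 44.4% on day 0. Olfr313 had 66.7% and 50% on day 1 and 33.3% and 55.6% on day 0. On 6 to 112 reads a library, the replicates of at least 1 day lay further apart than the means of the days in each of these 4 genes.

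Genes that serve the receptors were looked at as a list of 30, from the G protein, cyclase and channels of odorant signalling to the chaperones and transcription factors of OR expression. Pooled, they had 29.0% and 27.6% in day 1 treated and 27.5% and 26.9% in day 0 treated, with 1.32% and 0.949% in day 1 untreated and 2.40% and 2.59% in day 0 untreated. With the enzyme, 0 of the 19 members that could be fitted singly passed between the days in edgeR (0 of 6868 genes called), and their median log2 odds change was 0.12, against 0.09 over all genes. The enzyme itself raised 22 of 22 tested members on day 1 (99.8% of genes called) and 17 of 17 on day 0 (98.8%). Adcy3, the adenylyl cyclase of the olfactory cilium, had 29.1% and 27.9% on day 1 and 26.3% and 28.6% on day 0. Ano2, a calcium-gated chloride channel that amplifies the odorant response, had 28.1% and 28.0% on day 1 and 25.8% and 27.1% on day 0. Gnal, the olfactory G protein alpha subunit, had 29.8% and 33.9% on day 1 and 15.9% and 40.3% on day 0, with overlap. Of the 19 fitted members, Emx2 had the largest positive change (1.29 ± 0.85 SE), on 27 to 60 reads per library. It had 48.3% and 56.7% on day 1 and 25.9% and 33.3% on day 0. Cbx5 had the largest negative change (-0.62 ± 0.72 SE), with 38.1% and 21.7% on day 1 and 41.0% and 37.7% on day 0, with overlap.

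Without the enzyme 1 of 18 tested members passed between the days in edgeR, Ebf2, which was lower on day 1 (log2 odds change -2.65 ± 0.66 SE, adjusted p = 0.00485), where 3.72% of 6793 genes were called. For the net difference 2 of 17 passed in edgeR, Ebf1 (2.76 ± 0.83 SE, adjusted p = 0.0314) and Ebf2 (3.09 ± 0.77 SE, adjusted p = 0.00722), both higher, where 3.93% of 5247 genes were called. On the log2 odds scale most of both net differences came from the untreated libraries, where Ebf1 changed by -2.26 ± 0.73 (SE). In percentage points the treated libraries changed more than the untreated ones in both genes. Ebf1 had 35.6% and 26.1% in day 1 treated and 24.3% and 23.5% in day 0 treated. Without the enzyme it had 0.638% and 0.643% on day 1 and 3.95% and 1.72% on day 0. On the log2 odds scale Ebf1 changed by 0.50 ± 0.39 and Ebf2 by 0.44 ± 0.43 (SE) with the enzyme, and neither passed between the treated days. Limma called 4 of 18 members without the enzyme, all lower, where it called 11.2% of all genes. For the net difference it called 0 of 17 members, but also only 1 of all 5247 genes (0.0191%). Ebf1 and Ebf2 are transcription factors that bind OR enhancers and are also made in other tissues. Ebf2 had 31.6% and 35.2% in day 1 treated and 28.4% and 25.5% in day 0 treated, beside 1.59% and 0.287% in day 1 untreated and 6.57% and 5.50% in day 0 untreated.

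Sites close to each other inside OR regions were methylated alike. Across pairs of sites up to 20 bp apart, which mostly share reads, Pearson's r was 0.661 and 0.588 in day 1 treated and 0.559 and 0.653 in day 0 treated. At 71 to 100 bp it was negative in 4 of 4 treated libraries, at -0.472 and -0.190 on day 1 and -0.265 and -0.129 on day 0, over 95 to 172 pairs each. These are descriptions across sites that share molecules, with about 3 reads behind each site.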

How the data were processed

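NOMe-seq of 8 libraries was used. The files have no header and list 1 cytosine per line on mm10, per the labels. For each cytosine the authors deposited a fraction of methylated reads (2 decimals) and, beside it, the count of reads, which was 3 or more. Sources used here name no aligner, caller or duplicate handling. In the RefSeq start windows 100% of the listed sites were GpC cytosines not followed by G. No site in OR regions had over 100 reads, the limit set for every region. Methylated reads were taken as fraction times count, rounded, and pooled.

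Levels were compared over libraries by exact two-sided permutation: of days (2 against 2), of days within treatments, or of signs of within-library differences. Units, namely OR clusters and the other protein-coding genes (with 2 kb) per 1 Mb window, were fitted with edgeR 4.0.16 quasi-likelihood (R 4.3.3) on methylated and unmethylated reads over all 8 libraries with library as a term, at 20 reads in every library of the contrast. EdgeR gives no SE, and the SE printed with its changes is the size of the change divided by the square root of the test's F. It is unreliable for changes near 0. Benjamini-Hochberg adjustment ran over all units, with a threshold of 0.05. Limma 3.58.1 on log2((methylated + 1)/(unmethylated + 1)) was the alternative. Both were tested on simulated data with 200 changed units, an assumed SD of 0.3 between libraries in natural log odds, and edgeR made 9 false calls and limma 0. Levels and figures used scipy 1.17.1, pandas 2.3.3, numpy 2.4.6 and matplotlib 3.10.9 under Python 3.11.15. Single genes were fitted the same way, which was added after the units were seen, as were the comparisons at starts, between classes and with DNA between OR genes. Around starts a site near several starts counted at each. Families of the Or naming were planned, but the annotation gives MOR synonyms, which were used. Of single OR genes the text names the 10 with the highest lowest read count over the treated libraries; genes with start windows were chosen after their reads were seen. The members and lists were chosen with earlier results of these data known. Alternatives varied the flank, the limits on reads per site and unit, the weighting, the joining of clusters, the scaling and the libraries.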

Additional observations from a re-analysis of the deposited data

Results flagged for a closer look

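The treated and untreated OR levels moved in opposite directions between the days. Both day 1 treated libraries lay above both day 0 treated libraries, by 4.12 points on average, and both day 1 untreated libraries lay below both day 0 untreated libraries, by -0.959 points. The difference between these changes was 5.08 points (exact permutation of days within treated and untreated libraries, p = 0.0556, the smallest possible), and 2.98 points over the 1 kb blocks read on both days (exact permutation p = 0.111). The opposite movement was not particular to OR genes, since vomeronasal receptor genes and the rest of the autosomes showed it too. Other protein-coding genes within 500 bp of the start did not share it. With the enzyme these starts were lower on day 1, at 42.2% against 45.3% on day 0. Without it they stood at 1.46% and 1.53% on day 1 and at 1.51% and 1.49% on day 0. Vomeronasal receptor genes averaged 29.5% on day 1 and 26.0% on day 0 with the enzyme, and 1.26% and 3.47% without it. The rest of the autosomes averaged 30.4% and 29.1% with the enzyme, and 1.10% and 2.34% without it.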

How the results depend on the processing

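The 18 pooled level comparisons kept their direction under the alternatives run, except the following. At sites of 5 or more reads, OR regions against other protein-coding genes turned to 0.852 points, against vomeronasal genes to 11.3, gene bodies against flanks to 10.95, and the day difference of the site share to -0.0435 points. That share was also -0.00124 without chromosomes 3, 12 and 13, -0.00253 with 1 kb flanks and -0.00591 with genes alone, and passed at 0.0287 with 5 kb flanks. The vomeronasal difference was 0.30 with chromosome weighting and ran from -1.24 to 0.658 with a library left out. The OR start against distal difference ran from -1.67 to 3.19, and was negative, at -0.252 and -1.67, without replicate 1 or 2 of day 0 treated. The treated day difference ran from 2.59 to 5.64 and the treated difference from the rest from -3.11 to -1.43 with a library left out. At starts and for the classes, the limit of 5 reads gave no value, since a library had no such site. Causes were not tested.

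Between the treated days 0 units were called in each alternative. Without the enzyme limma called 973 units, centring left 7, and leaving out a library gave 209 to 412. For the net difference centring left 1, and leaving out a library gave 210 to 412. Treated against untreated, which centring removes by construction, gave 9 on day 1 (1 higher, 8 lower) and 20 on day 0 (13 higher, 7 lower) after centring. The labels do not say that same-numbered libraries belong together, and over 1904 units the differences between replicates of one group correlated with those of another at Pearson's r of -0.0354 to 0.0373. A replicate block gave 0 units between the treated days, 523 without the enzyme, 421 for the net difference, and 2017 and 1908 for treated against untreated on day 1 and day 0. OR clusters called between the days stayed at 0 with the block, and 12 of 14 in place of 13 passed for the enzyme on day 0. Depth limits all of this: about 3 reads per site, and few sites read on both days.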
